A study of Mus musculus with 8 samples.

Results

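Pseudogene transcripts are RNAs read from gene copies that are not thought to make the original protein. In the authors' deposited gene table of ARE-/- against WT mouse hearts, they were taken as all rows whose gene type contains the word pseudogene. This gave 124 of 4820 listed rows, 119 typed pseudogene and 5 typed polymorphic pseudogene, a class that codes for protein in some strains only. The study sequenced total RNA from whole hearts of 4 ARE-/- and 4 WT male C57B6/J mice of 20 to 25 weeks, and its title concerns interferon gamma (IFN-γ) together with androgens and the mitochondria of muscle cells. ARE, which the labels leave unexplained, was taken to mean an AU-rich element that shortens the life of the Ifng transcript. Ifng had 103, 37, 27 and 61 reads in ARE-/- hearts, against 0, 3, 0 and 1 in WT hearts. No further allele, agent or transgene is named for either genotype.

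Pseudogenes arise in more than one way. A processed pseudogene is an intronless copy of a messenger RNA pasted back into the genome, often inside an intron of an unrelated gene. An unprocessed pseudogene is a duplicated gene that decayed, and it often lies beside its functional relatives, as in the histocompatibility and interferon-induced GTPase clusters. Stretches of the mitochondrial genome have also been copied into nuclear chromosomes. Because a copy can match its relative base for base over whole reads, the counts of both can be mixed, and the sources used here do not say how reads that match several places were counted.

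Sequences of 3 kinds show how close the copies were to their relatives. They are GENCODE M21 transcripts on build GRCm38 (mm10), each over the coding stretch of 90 bases that holds the most mismatches in its alignment, and capitals mark bases that differ between the pair. The first set is the cytochrome oxidase gene mt-Co2 of the mitochondrial genome, base 445 to 534 of its transcript, with its nuclear copies on chromosome 1 (RP23-8J15.2, minus strand, chr1:24615032-24615121) and chromosome 2 (Gm13341, minus strand, chr2:22587441-22587530). RP23-8J15.2 had no mismatch here or elsewhere in its 681 bases, whereas Gm13341 had 7 in this stretch.
RP23-8J15.2: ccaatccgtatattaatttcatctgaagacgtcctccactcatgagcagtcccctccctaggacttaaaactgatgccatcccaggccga
Gm13341: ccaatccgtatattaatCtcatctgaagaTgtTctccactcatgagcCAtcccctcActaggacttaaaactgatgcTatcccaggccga
mt-Co2: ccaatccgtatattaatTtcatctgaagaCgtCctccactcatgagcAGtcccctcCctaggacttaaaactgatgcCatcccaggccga

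The second set holds processed copies of metabolic, cytoskeletal and translation genes. Gm13910 (plus strand, chr2:108948917-108949006) copies Hadhb, a subunit of the mitochondrial enzyme that breaks down long-chain fatty acids, and differed at 3 of 1428 bases in all. Gm12715 (plus strand, chr4:103564176-103564265) copies Actg1, cytoplasmic actin, and differed at 4 of 1128 bases. Gm11400 (minus strand, chr11:3150766-3150855) copies Eef2, the factor that moves the ribosome along the message, and matched over 67.0% of its length with 93.0% identity.
Gm13910: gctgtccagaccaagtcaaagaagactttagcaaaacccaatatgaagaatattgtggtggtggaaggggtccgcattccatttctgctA
Hadhb: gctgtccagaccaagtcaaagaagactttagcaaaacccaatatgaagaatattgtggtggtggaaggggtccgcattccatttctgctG
Gm12715: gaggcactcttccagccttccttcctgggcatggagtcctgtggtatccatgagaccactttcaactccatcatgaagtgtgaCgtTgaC
Actg1: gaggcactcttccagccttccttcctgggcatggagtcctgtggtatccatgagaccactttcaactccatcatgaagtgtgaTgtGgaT
Gm11400: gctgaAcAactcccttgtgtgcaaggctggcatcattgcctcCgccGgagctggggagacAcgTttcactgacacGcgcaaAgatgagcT
Eef2: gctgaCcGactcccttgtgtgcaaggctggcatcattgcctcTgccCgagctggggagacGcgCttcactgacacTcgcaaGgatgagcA

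The third set holds duplicated immune genes. C920025E04Rik (chromosome 17, 36109234 to 36111658, minus strand) was 95.6% identical to H2-T23, a class I histocompatibility molecule seen by natural killer cells. Gm15931 (chromosome 7, 4274189 to 4282645, plus strand) was 96.7% identical to Pirb, an inhibitory receptor of myeloid cells. Each pair differed at 11 of the 90 bases shown, so reads from these stretches could be told apart, unlike those of the mt-Co2 copy on chromosome 1.
C920025E04Rik: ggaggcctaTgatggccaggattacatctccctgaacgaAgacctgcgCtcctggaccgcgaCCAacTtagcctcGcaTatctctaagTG
H2-T23: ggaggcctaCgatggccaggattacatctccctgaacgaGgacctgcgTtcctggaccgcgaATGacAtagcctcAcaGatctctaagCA
Gm15931: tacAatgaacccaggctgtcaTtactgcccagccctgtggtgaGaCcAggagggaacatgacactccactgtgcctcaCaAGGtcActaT
Pirb: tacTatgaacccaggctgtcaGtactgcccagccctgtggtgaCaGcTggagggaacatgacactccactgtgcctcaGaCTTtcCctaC

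Most listed pseudogene rows were lower in ARE-/- hearts. By the authors' test (DESeq2, adjusted p under 0.05), 28 rose and 96 fell. The same rule called 24.6% of the 19606 genes that the authors' adjustment implies were tested, 12.8% as risen and 11.8% as fallen. Only called genes are listed, so the share of all pseudogenes that changed is not known, and the split of directions is the comparison that the list allows. Pseudogene rows that rose made up 22.6% of the listed ones, against 55.0% of 4442 protein-coding rows, 10.4% of 115 long intergenic noncoding rows and 14.9% of 67 antisense rows. Falls thus outnumbered rises in both other noncoding classes too. They also did among protein-coding rows with a mean under 10 normalised counts (reads scaled by library), of which 56 rose and 271 fell, beside 5 risen and 62 fallen pseudogene rows below that mean.

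Risen and fallen pseudogene rows differed in level as well as direction. A log2 difference here subtracts the WT average of log2(normalised count + 0.5) from the ARE-/- average, with its SE over 4 hearts per group, and a normalised count is the read count divided by the authors' size factor of the library. Differences ran between 0.69 and 8.16 in the risen rows (median 2.37) and between -4.08 and -0.45 in the fallen rows (median -2.49), against medians of 1.01 and -1.02 over all listed rows that rose or fell. The mean normalised count over the 8 libraries had a median of 8.29 in pseudogene rows and 246 in protein-coding rows. Of the fallen rows, 62 of 96 averaged under 10 normalised counts, and of the risen rows 5 of 28. No read was counted in any ARE-/- heart in 9 fallen rows, each with 12 to 17 reads over the 4 WT hearts. With these 9 set to the bound that 3 reads over the group allow, the median of the fallen rows was -2.45. The 4 ARE-/- values lay wholly to one side of the 4 WT values in 97 pseudogene rows (27 risen and 70 fallen), 78.2%, near the 81.5% of all listed rows.

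**Figure D1:**
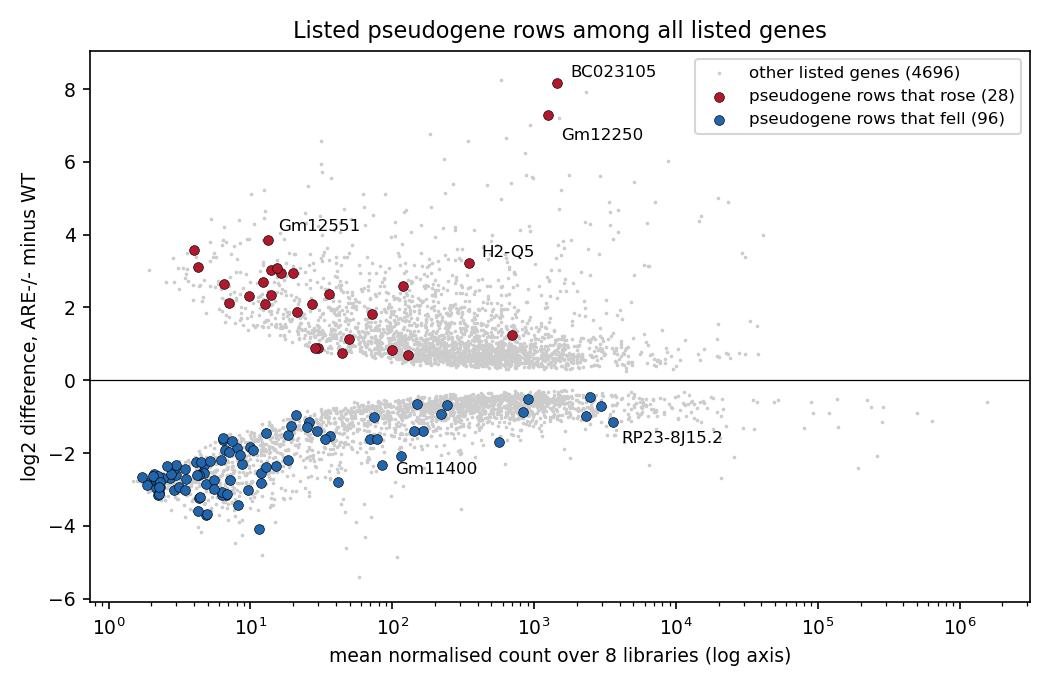
Log2 difference (ARE-/- minus WT) against mean normalised count over the 8 libraries (log axis) for the listed genes. The 28 risen and 96 fallen pseudogene rows are coloured and the other 4696 listed genes are grey; 62 of the fallen rows lie below a mean of 10.

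The libraries behind these values held between 13416171 and 19432098 reads in ARE-/- hearts and between 14321679 and 17129012 in WT hearts, and pseudogene rows took 0.118 to 0.152% and 0.114 to 0.138% of them. ARE-/- replicate 1 and WT replicate 3 stood apart from their groups. ARE-/- replicate 1 was the highest of its group in 20 of 28 risen rows and WT replicate 3 the lowest of its group in 60 of 96 fallen rows. An edgeR refit on the listed genes called 27 risen and 88 fallen rows, and 25 and 93 without both libraries. Leaving out any 1 of the other 6 libraries left 18 to 24 risen rows and 41 to 45 fallen rows past the threshold, fewest risen without WT replicate 1 and fewest fallen without WT replicate 4. Scaling by library totals left 28 risen and 57 fallen rows, and raised the median difference of all listed genes by 0.20 on the log2 scale.

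Markers of cell types also moved between the genotypes. Summed normalised counts of listed cardiomyocyte markers (6 of 10, 1 risen and 5 fallen) were 201821 to 308672 in ARE-/- and 406099 to 602052 in WT. Listed macrophage markers (7 of 8, 6 risen and 1 fallen) summed to 31736 to 47012 in ARE-/- and 6240 to 10434 in WT, and T and NK cell markers (7 of 8, all risen) to 1373 to 1744 in ARE-/- and 118 to 277 in WT. Erythroid markers (5 of 5, all fallen) summed to 116650 to 441922 in ARE-/- and 729921 to 873678 in WT. Of the other lists, B cell (1 of 4), neutrophil (2 of 4) and endothelial (1 of 4) markers had listed members that all fell, and the neutrophil gene Mpo was at 0 in ARE-/- hearts. In whole hearts fewer cells of a type and less RNA per cell cannot be told apart, and the part of these shifts in the pseudogene results was not tested.

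What the reads of the listed pseudogene rows came from differed between genotypes, although the total share of these rows did not separate. Only rows called between the genotypes are listed, so a differing make-up follows in part from that selection. The make-up and total share of all pseudogenes are not known. The 7 nuclear copies of mitochondrial genes held 44.7 to 52.3% of pseudogene reads in ARE-/- and 76.8 to 79.6% in WT. Gm12250 and BC023105, relatives of interferon-induced GTPases, held 27.0 to 30.7% in ARE-/- and 0.0702 to 0.298% in WT. The remaining rows held 20.7 to 24.7% in ARE-/- and 20.1 to 23.1% in WT.

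**Figure D2:**
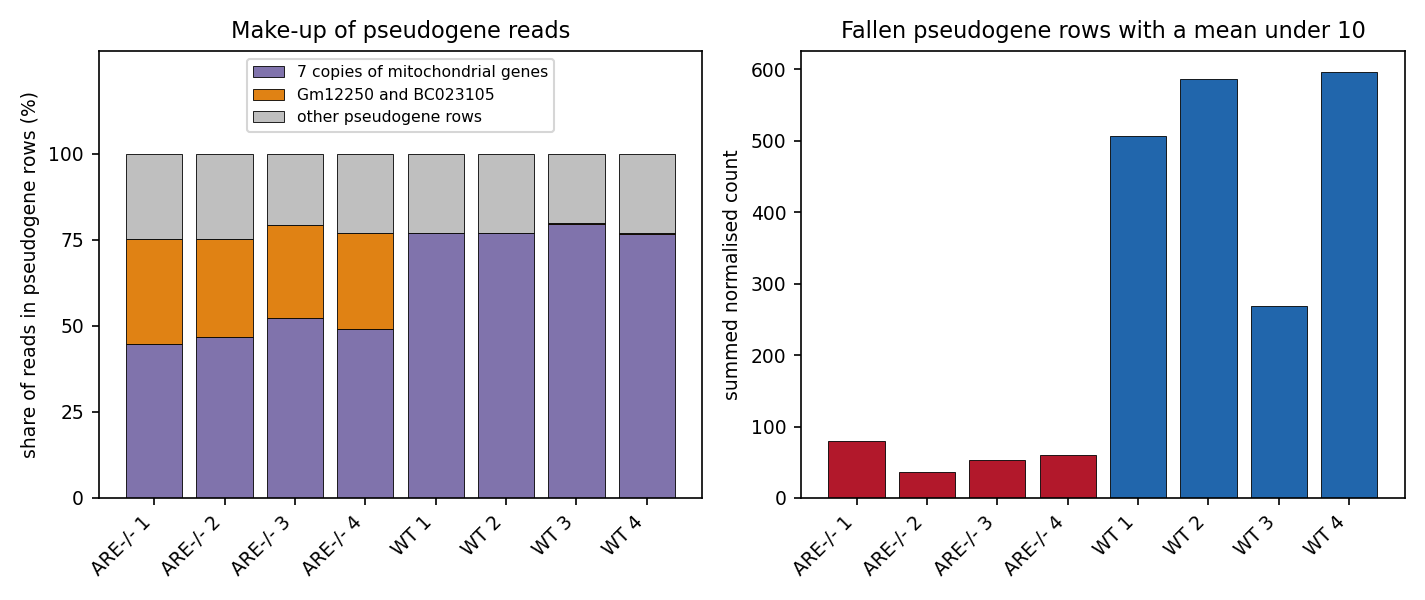
Left, share of each library's reads in listed pseudogene rows (%) that fell to 7 copies of mitochondrial genes, to Gm12250 and BC023105, and to other rows. The mitochondrial copies held 44.7 to 52.3% in the 4 ARE-/- libraries and 76.8 to 79.6% in the 4 WT libraries. Right, normalised counts summed over the fallen rows with a mean under 10. The sums were 36.9 to 79.3 in ARE-/- libraries and 268 to 596 in WT libraries, lowest of WT in replicate 3. These rows were chosen for being lower in ARE-/-, so the lower ARE-/- sums follow from that choice and only the spread within groups is informative.

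The 2 largest rises, Gm12250 and BC023105, were among 5 risen relatives of interferon-induced GTPases. These GTPases gather on the vacuoles of intracellular pathogens and disrupt them. Gm12250 (ENSMUSG00000082292) had 2578, 2515, 2407 and 2487 normalised counts in ARE-/- hearts, against 18.0, 9.57, 31.0 and 10.3 in WT hearts. All ARE-/- hearts were thus close to one another and far above every WT heart. Its log2 difference was 7.30 ± 0.38 (SE), and its level per length was 134 ± 16.8 FPKM in ARE-/- and 0.802 ± 0.475 FPKM in WT (SD, n = 4 each). RefSeq gives this locus as protein coding under the synonym Irgb10, so its pseudogene label comes from the annotation behind the table. Its neighbours Igtp and Irgm2, GTPases of the same family within 100 kb, rose by 6.03 ± 0.18 and 4.89 ± 0.17.

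The promoter of Gm12250 is shown because it was the only matched one of these rows to hold an interferon-type motif. RefSeq gives it on GRCm38.p6, plus strand, at chr11:58183593-58183892, upstream of the deposited row, which spans 58187739 to 58189012. Capitals mark 2 matches to TTTCNNTTTC or its reverse complement GAAANNGAAA, the core of the interferon-stimulated response element.
Gm12250 promoter: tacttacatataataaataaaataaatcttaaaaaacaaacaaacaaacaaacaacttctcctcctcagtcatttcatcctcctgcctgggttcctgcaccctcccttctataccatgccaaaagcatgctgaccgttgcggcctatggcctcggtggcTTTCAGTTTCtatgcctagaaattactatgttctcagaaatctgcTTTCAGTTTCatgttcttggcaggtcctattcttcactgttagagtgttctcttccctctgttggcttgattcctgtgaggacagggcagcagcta
Of 32851 RefSeq promoters of this length, 3.44% held this motif on either strand. Promoters were matched for 4 pseudogene rows, and those of Gm7609, C920009B18Rik and Gm15455 did not hold these letters in this window.

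BC023105, on chromosome 18, had the largest rise of all pseudogene rows, with 3397, 2511, 2972 and 2741 normalised counts in ARE-/- hearts, against 4.80, 13.2, 25.2 and 5.14 in WT hearts. ARE-/- replicate 1 was the highest and WT replicate 3 the highest of its group, with no overlap. Its difference of 8.16 ± 0.55 stood beside 7.93 ± 0.29 for Gm4841, the coding GTPase it most resembles (94.4% identity), and its level was 162 ± 36.5 FPKM in ARE-/- and 0.584 ± 0.470 FPKM in WT (SD, n = 4 each). The other 3 relatives of these GTPases were far lower. Gm5970, 88.1% identical to Iigp1, had 78.5, 13.4, 7.90 and 20.8 normalised counts in ARE-/-, against 2.40, 4.79, 0.968 and 2.06 in WT, a difference of 2.94 ± 0.79, where Iigp1 itself rose by 4.89 ± 0.15. It lies within an intron of the coding GTPase gene Gm4951, on the same strand, which rose by 5.38, so unspliced reads of that gene could be counted in it. Gm18852 and Gm18853 matched the very large interferon-induced GTPase Gvin1 over 44.6% and 44.7% of their length and rose by 2.14 ± 0.64 and 2.64 ± 0.77. Their mean normalised counts were low, 7.11 and 6.47. Gm18852 overlaps an exon of Gm4070 and Gm18853 lies in an intron of Gvin1, each on the same strand, so reads of those genes could be counted in them. These 5 rows had adjusted p (DESeq2) in the authors' deposited table that ran between 1.28e-151 for Gm12250 and 0.0182 for Gm18852.

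Pseudogenes of class I histocompatibility genes rose together, 4 of 4 rows. Class I molecules show peptides from inside the cell to cytotoxic T cells, and the H2-Q and H2-T regions hold many nonclassical copies. H2-Q5 had 548, 671, 610 and 691 normalised counts in ARE-/- hearts, against 62.5, 56.2, 81.3 and 70.9 in WT hearts. H2-T10 had 250, 203, 169 and 195 in ARE-/- hearts, against 32.4, 23.9, 50.3 and 31.9 in WT hearts. Neither overlapped between genotypes. Their differences were 3.22 ± 0.14 and 2.58 ± 0.25. The 18 other listed H2- rows, which mix class I and class II genes, all rose, with a median of 4.02. Their range was 1.84 to 5.23, the highest being the class II gene H2-DMb1. The class I rows among them ran from 1.84 for H2-T24 to 4.35 for H2-M2, so both copies lay within the class I range. The nearest coding gene of H2-Q5, H2-Q7 at 95.9% identity, rose by 4.26 ± 0.24. C920025E04Rik, shown above with H2-T23, rose by 3.04 ± 0.41 on 25.2 ± 8.29 normalised counts in ARE-/- and 2.65 ± 1.21 in WT (SD, n = 4 each), where H2-T23 rose by 4.32 ± 0.16. RefSeq gives C920025E04Rik as protein coding, under the symbol H2-T-ps, and GENCODE M21 gives it as an unprocessed pseudogene. Gm9574, beside them and 82.4% identical to H2-T22, rose by 2.10 ± 0.60. These rows resemble one another and their coding relatives closely, and 6 of 6 listed genes within 100 kb of C920025E04Rik rose.

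A block of chromosome 1 around Sp100 and Sp140 held 6 risen rows. Sp100 and Sp140 encode proteins of nuclear bodies that interferon induces. Gm2619, 98.7% identical to Sp100 over 58.2% of its length, had 69.5, 34.7, 15.8 and 23.2 normalised counts in ARE-/- hearts, against 7.21, 4.79, 0.968 and 4.11 in WT hearts. It was higher in each ARE-/- heart than in any WT heart, by 2.94 ± 0.68. Gm7609, which RefSeq gives as protein coding, had the highest level of the block, 112 ± 32.5 normalised counts in ARE-/- and 31.9 ± 11.3 in WT (SD, n = 4 each), and rose by 1.83 ± 0.37. The block further held Gm7582 (3.57 ± 0.48), Gm6264 (3.11 ± 0.84), Gm7592 (3.08 ± 0.47) and Gm15433 (2.70 ± 0.64), of which Gm7582 and Gm6264 had no read in 3 of 4 WT hearts. Sp140 itself, the nearest coding relative of Gm6264, rose by 2.31 ± 0.49. Sp100, the nearest coding relative of Gm2619, Gm7582 and Gm7592, was not among the listed rows. The listed coding gene C130026I21Rik spans 84992690 to 85270566 in this block and rose by 1.31 ± 0.60, with overlapping groups. Whether its reads were counted in pseudogene rows of the block was not tested.

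Other immune genes were relatives or hosts of 4 further risen rows. Gm15931, the Pirb copy shown above, had 92.4, 48.1, 49.2 and 48.9 normalised counts in ARE-/- hearts, against 14.4, 3.59, 12.6 and 18.5 in WT hearts, a difference of 2.38 ± 0.54, where Pirb rose by 1.65 ± 0.22. ARE-/- replicate 1 stood well above the rest of its group, as it did in BC064078, a risen row with no coding host, whose best coding match covered 18.2% of its length. BC064078 had 78.5, 20.1, 20.2 and 21.6 normalised counts in ARE-/- against 8.41, 5.98, 6.78 and 9.25 in WT and rose by 1.88 ± 0.49. RP23-458B6.6, 84.7% identical to Ly6i, a small surface antigen gene, rose by 2.36 ± 0.72 beside 2.80 ± 0.61 for Ly6i. C920009B18Rik lies in an intron of Raet1e, a ligand gene of an activating receptor of natural killer cells, and rose by 2.32 ± 0.60. Oas1b belongs to the oligoadenylate synthetases, which sense double-stranded RNA, and full-length Oas1b is known to protect mice from flaviviruses. It had 44.1, 39.2, 28.1 and 36.1 normalised counts in ARE-/- against 24.0, 14.4, 23.2 and 18.5 in WT, a rise of 0.87 ± 0.22, the lowest of the 8 listed Oas rows. The other 7 Oas rows rose by 1.08 to 4.19, with a median of 2.81.

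Copies of 5 housekeeping and cytoskeletal genes, a set made up only of copies that rose, rose by 0.69 to 2.09. Other copies of such genes fell, among them those of Tuba1b (Gm5620, -2.38) and Eef2 (Gm11400, -2.34). Of 16 copies of genes named Rpl or Rps, 2 rose and 14 fell. Gm12715, the Actg1 copy shown above, had 33.5, 44.8, 55.3 and 41.7 normalised counts in ARE-/- hearts, against 6.01, 8.38, 17.4 and 10.3 in WT hearts, a difference of 2.09 ± 0.34 where Actg1 rose by 0.93 ± 0.04. Rpl19-ps11 copies the ribosomal protein gene Rpl19 at 99.8% identity. It had 133, 135, 122 and 120 normalised counts in ARE-/- against 70.9, 67.0, 72.6 and 77.1 in WT, narrow in both genotypes, and rose by 0.82 ± 0.06. The 11 other listed Rpl rows all rose too, with a median of 0.51 and a range of 0.31 to 2.20. The others were Gm11585 (Ppih, a cyclophilin, 0.75 ± 0.14), Gm5526 (Myl6, a myosin light chain, 0.89 ± 0.21) and Gm10180 (Rpl41, 0.69 ± 0.26). Gm10180 was the only risen row whose groups overlapped. Gm12551 was 89.1% identical to the lipid droplet gene Plin2 over 60.3% of its length. It rose by 3.86 ± 0.70 on 24.9 ± 9.59 normalised counts in ARE-/- and 1.66 ± 1.55 in WT (SD, n = 4 each). Plin2 rose by 0.70 ± 0.07. Cebpd, a transcription factor of inflammation, and Tigd5 are typed pseudogene in the table but protein coding in GENCODE M21. Cebpd rose by 1.25 ± 0.17 and Tigd5 by 1.12 ± 0.28.

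**Figure D3:**
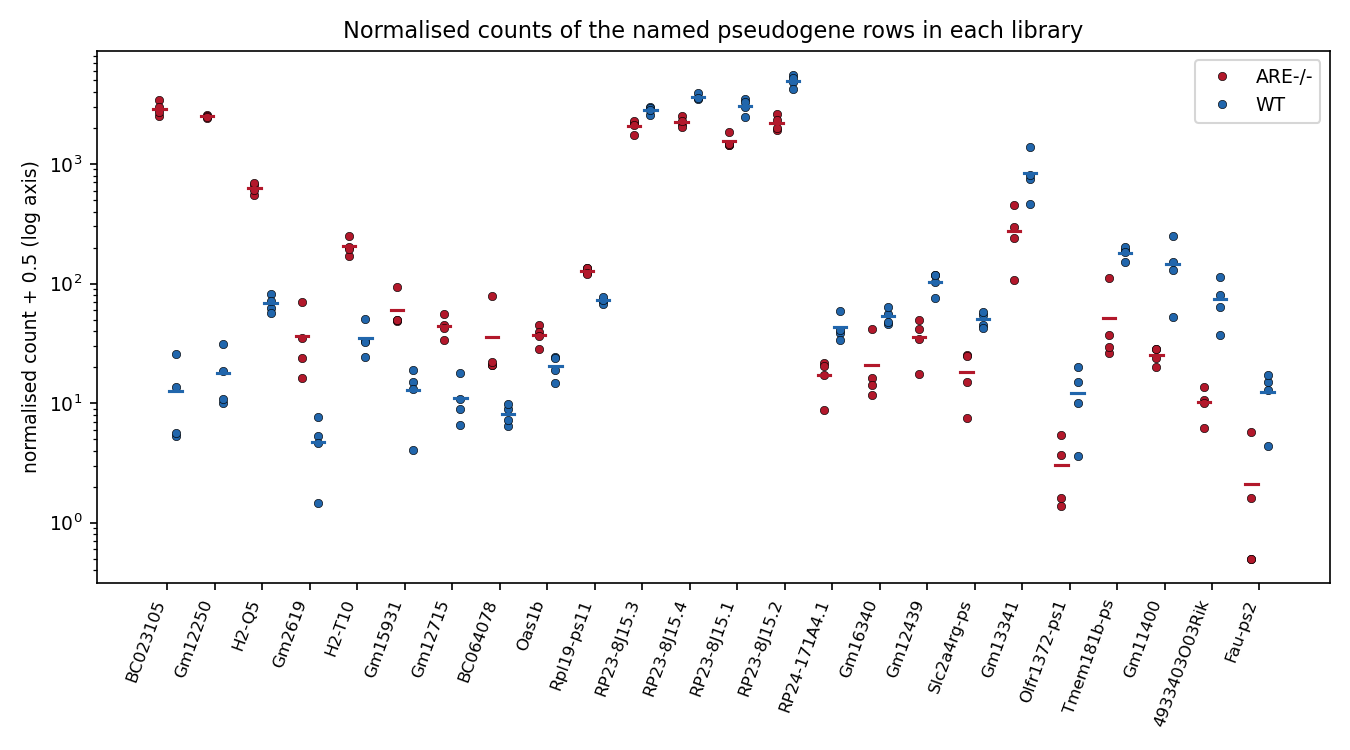
Normalised count + 0.5 (log axis) of 24 pseudogene rows in each library, ordered by log2 difference, with ARE-/- left of WT for each row. Points are libraries and bars are means of 4; groups overlap only in Olfr1372-ps1 and Fau-ps2.

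All 7 nuclear copies of mitochondrial genes fell, and 4 of them had the highest means of all pseudogene rows over the 8 libraries. In ARE-/- hearts alone BC023105 and Gm12250 stood above every one of them. Mitochondrial genes encode core subunits of the respiratory chain and ATP synthase. RP23-8J15.2, the exact mt-Co2 copy shown above, had 1920, 1988, 2629 and 2348 normalised counts in ARE-/- hearts, against 4825, 5556, 4221 and 5207 in WT hearts. Every ARE-/- heart lay below every WT heart, by 1.16 on the log2 scale (SE 0.14), where mt-Co2 itself stood at -1.24 ± 0.15. The mean log2 ratio of this copy to mt-Co2 was 0.03 in ARE-/- and -0.05 in WT. The identical loci thus had about equal deposited counts in both genotypes. The same held for RP23-8J15.4 and mt-Co3, with ratios of -0.06 in ARE-/- and -0.11 in WT and differences of -0.69 ± 0.07 and -0.75 ± 0.11. It did not hold for RP23-8J15.3, also identical to its gene mt-Atp6. That copy had more counts than mt-Atp6, at a log2 ratio of 0.82 in ARE-/- and 0.62 in WT. In WT hearts mt-Co2, mt-Co3 and mt-Atp6 averaged 5112, 3929 and 1855 normalised counts. There mt-Co1, mt-Nd2 and mt-Nd4, whose listed copies match only part of the gene, averaged 1.87e+06, 355683 and 390285. Differences of mt-Co2, mt-Co3 and mt-Atp6 may rest on part of their reads, which was not tested.

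The other rows of this chromosome 1 insertion fell by different amounts. RP23-8J15.1, 99.8% identical to mt-Co1, had 1450, 1431, 1845 and 1475 normalised counts in ARE-/- against 3009, 3527, 2462 and 3303 in WT, a difference of -0.98 ± 0.14. RP23-8J15.3, identical to mt-Atp6, had the smallest fall of all pseudogene rows, -0.45 ± 0.10, on 2084 ± 243 normalised counts in ARE-/- and 2843 ± 195 in WT (SD, n = 4 each), and stood at -0.25 with library totals. RP23-8J15.7, identical to mt-Nd4, fell by 0.52 (SE 0.19) where mt-Nd4 stood at -1.14. Its log2 ratio to mt-Nd4 was -7.91 in ARE-/- and -8.53 in WT, without overlap. On chromosome 2, inside an intron of Myo3a on the other strand, Gm13341 had 106, 457, 298 and 240 normalised counts in ARE-/- against 756, 1376, 459 and 802 in WT. Its highest ARE-/- value lay just under its lowest WT value, that of replicate 3, and the difference was -1.69 ± 0.55. Gm13339, 96.7% identical to mt-Nd2, stood at -1.61 ± 0.57 with overlapping groups. All 11 listed mitochondrial genes fell, by a median of 0.77. Reads of these copies cannot be told apart from mitochondrial transcripts where the sequences are identical.

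Copies of 5 listed nuclear genes of mitochondrial and carbohydrate metabolism, a grouping made after their values were seen, also fell, each without overlap. Over all pseudogene rows 77.4% fell and 78.2% did not overlap. Gm13910, the Hadhb copy shown above, had 71.9, 83.9, 90.4 and 119 normalised counts in ARE-/- hearts, against 237, 219, 234 and 252 in WT hearts. It stood at -1.39 ± 0.16, beside -1.15 ± 0.06 for Hadhb, which was far more abundant, with 9352 ± 639 in ARE-/- and 20795 ± 754 in WT (SD, n = 4 each). Gm12338, identical to Cox7c of cytochrome oxidase over its 192 bases, stood at -0.65 ± 0.19 beside -0.56 ± 0.21. Gm12231 (-1.15 ± 0.29) copies Atp5f1, a stalk subunit of ATP synthase, which stood at -0.76 ± 0.07. Gm10480 (-1.45 ± 0.33) copies the mitophagy receptor gene Bnip3l (-1.10 ± 0.42), and RP23-184B11.2 (-0.94 ± 0.22) copies Sord, sorbitol dehydrogenase (-0.79). In none of the 5 did the log2 ratio of copy to coding gene separate the genotypes. Weaker rows whose metabolic relatives were not among the listed genes fell as well, among them copies of the glycolytic gene Gapdh (Gm12017 at -2.66 ± 0.50 and Gm4335 at -1.91 ± 0.33), of the outer membrane channel gene Vdac1 (Gm15502 at -1.68 ± 0.44) and of the mitochondrial ribosome gene Mrpl20 (Gm7805 at -2.64 ± 0.63).

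Most other fallen rows were weakly counted processed copies. Of the 96 fallen rows, 66 are processed pseudogenes in GENCODE M21, against 10 of 28 risen rows. Genes named Rpl or Rps were the nearest coding relative of 14 fallen and 2 risen rows, at 80% identity or more over at least 50% of the copy. This count goes by name, so it includes 1700084J12Rik, nearest to the Rpl7-like gene Rpl7l1. The most abundant was the Rps24 copy Gm2830 at 565 ± 75.2 normalised counts in ARE-/- and 1102 ± 430 in WT (SD, n = 4 each). Its groups overlapped, with a difference of -0.88 ± 0.32. The gene copied was itself listed for 1 of the 14 fallen ribosomal rows, Rpl18, which rose. Of the listed genes named Rpl other than Rpl19-ps11, 11 of 11 rose, and of those named Rps 7 rose and 1 fell. Gm11839, a copy of the poly(A)-binding protein gene Pabpc4, had the lowest log2 difference with 0.5 added, -4.08 ± 0.89, on 4.91, 1.12, 0 and 0 normalised counts in ARE-/- against 10.8, 17.9, 31.9 and 25.7 in WT. The ARE-/- zeros make this rank depend on what is added, and by the log2 fold change in the authors' deposited table Gm16016 (-2.71) lay marginally below it (-2.70). Transcript GC content had a median of 50% in 91 fallen and 49.4% in 27 risen pseudogene rows, whereas over all listed rows it was 52.7% in those that rose and 47.3% in those that fell. Its part in the falls was not tested.

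Many of these copies lie inside other genes. Of the 96 fallen rows, 41 overlap a protein-coding gene, 38 of them within an intron, 25 on the same strand and 16 on the opposite strand. Their host was itself listed in 16 cases, of which 12 hosts fell and 4 rose. Of the 28 risen rows, 9 overlap a coding gene and 4 hosts were listed, all risen. Over all listed rows 52.1% rose and 47.9% fell, and these few hosts were not tested against that split. Whether reads from unspliced host transcripts were counted in these rows was not tested. One group of such copies is in a block of chromosome 11 in which every listed gene fell. Gm11400, the Eef2 copy shown above, lies in an intron of Sfi1, a centrosome gene, on the same strand. It had 19.6, 23.5, 28.1 and 28.0 normalised counts in ARE-/- against 150, 129, 52.3 and 250 in WT, tight in ARE-/- and spread in WT with replicate 3 lowest. Its difference of -2.34 ± 0.48 stood against -0.95 ± 0.21 for Sfi1 and 0.71 ± 0.27 for Eef2. Next to it Fau-ps2 had 0, 1.12, 5.27 and 0 normalised counts in ARE-/- against 14.4, 16.8, 3.87 and 12.3 in WT, overlapping, and stood at -3.15 ± 0.95, or at -1.34 with 5 in place of 0.5 added to each normalised count. Pisd-ps1, a relative of the mitochondrial phosphatidylserine decarboxylase gene, fell by 0.93 (SE 0.24), and its counterpart on chromosome 17, Pisd-ps2, by 1.02 (SE 0.15).

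Further fallen rows included several with a gene name of their own. 4933403O03Rik, given as the double homeobox gene Duxf3 and protein coding in GENCODE M21, had 5.72, 10.1, 13.2 and 9.61 normalised counts in ARE-/- hearts, against 63.7, 80.2, 36.8 and 113 in WT hearts. All WT hearts lay above all ARE-/- hearts, by 2.81 on the log2 scale (SE 0.41), and its relative AW822073 (98.1% identity) stood at -2.33 ± 0.35. Tmem181b-ps had 111, 25.7, 29.0 and 36.9 normalised counts in ARE-/- against 190, 202, 182 and 151 in WT, a difference of -2.09 ± 0.49 in which ARE-/- replicate 1 lay nearest to WT. Ppp4r1l-ps, a relative of a phosphatase regulator gene, stood at -1.38 ± 0.25 on 77.3 ± 6.98 in ARE-/- and 209 ± 60.7 in WT (SD, n = 4 each). Slc2a4rg-ps had 24.5, 14.5, 7.02 and 24.0 normalised counts in ARE-/- against 54.1, 57.4, 44.5 and 42.1 in WT and stood at -1.61 ± 0.42. Gm12439 was at 35.3 ± 13.7 in ARE-/- and 103 ± 19.7 in WT, and RP24-171A4.1, 99.1% identical to D2hgdh over 59.2% of its length, at 16.5 ± 5.85 in ARE-/- and 42.5 ± 10.7 in WT (SD, n = 4 each). Olfr1372-ps1, an olfactory receptor copy, had 4.91, 1.12, 0.878 and 3.20 normalised counts in ARE-/- against 14.4, 9.57, 19.4 and 3.08 in WT, overlapping. It stood at -1.98, or at -1.06 with 5 added to each normalised count, and the 3 other listed Olfr rows fell too.

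Gm16340 ran against its listed neighbours. GENCODE M21 aligns it best, at 95.2% identity over its whole length, with Ifi203, a member of the interferon-activated family that senses DNA. It had 40.9, 11.2, 15.8 and 13.6 normalised counts in ARE-/- hearts, against 55.3, 45.5, 62.9 and 47.3 in WT hearts, a difference of -1.53 ± 0.42, without overlap. The listed genes within 100 kb of it, AI607873, Ifi204, Mnda and Mndal, all rose. Of the 15 listed rows whose names begin with Ifi, a stem wider than the family of Ifi203, 14 rose and 1 fell. Their median was 1.93. Ifi203 itself was not among the listed rows.

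Copies and coding relatives were also compared within each library. A coding relative with at least 80% identity over at least 50% of the copy was found for 93 of 124 rows, 18 risen and 75 fallen, and was itself listed for 35. With Fau-ps2 and Fau, matched by name, this gave 36 pairs. Copy and coding gene moved the same way in 28 pairs, among them all 11 risen copies, and opposite ways in 8, all with a fallen copy and a risen coding gene. The 8 coding genes were Fau, Eef2, Tuba1b, Rpl18, Ints5, Rangap1, Ckap2 and Cdc20. The log2 ratio of copy to coding gene differed between genotypes without overlap in 14 pairs (38.9%), 11 lower and 3 higher in ARE-/-, each at an exact two-sided permutation p of 0.0286, the smallest that 4 against 4 allows. None passed after Benjamini-Hochberg adjustment over the 36 pairs (0%), where the smallest adjusted p was 0.0735 by the exact permutation test. With that smallest p, no pair could pass unless more pairs had reached it together, so this outcome does not show that the ratios were alike. Both rows of each pair were listed for differing between these genotypes, so pairs that moved opposite ways tend to separate by selection. Among the 3 higher in ARE-/- were Gm12551 against Plin2, at 3.17 ± 0.71, and Gm12715 against Actg1, at 1.16 ± 0.31. Among the 11 lower were Gm11400 against Eef2, at -3.05 ± 0.47, Oas1b against Oas1g, at -2.31 ± 0.40, and H2-Q5 against H2-Q7, at -1.04 ± 0.17. With 5 in place of 0.5 added to each normalised count, the pairs named stood at 1.45, 0.76, -2.87, -1.865 and -1.11, in that order.

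**Figure D4:**
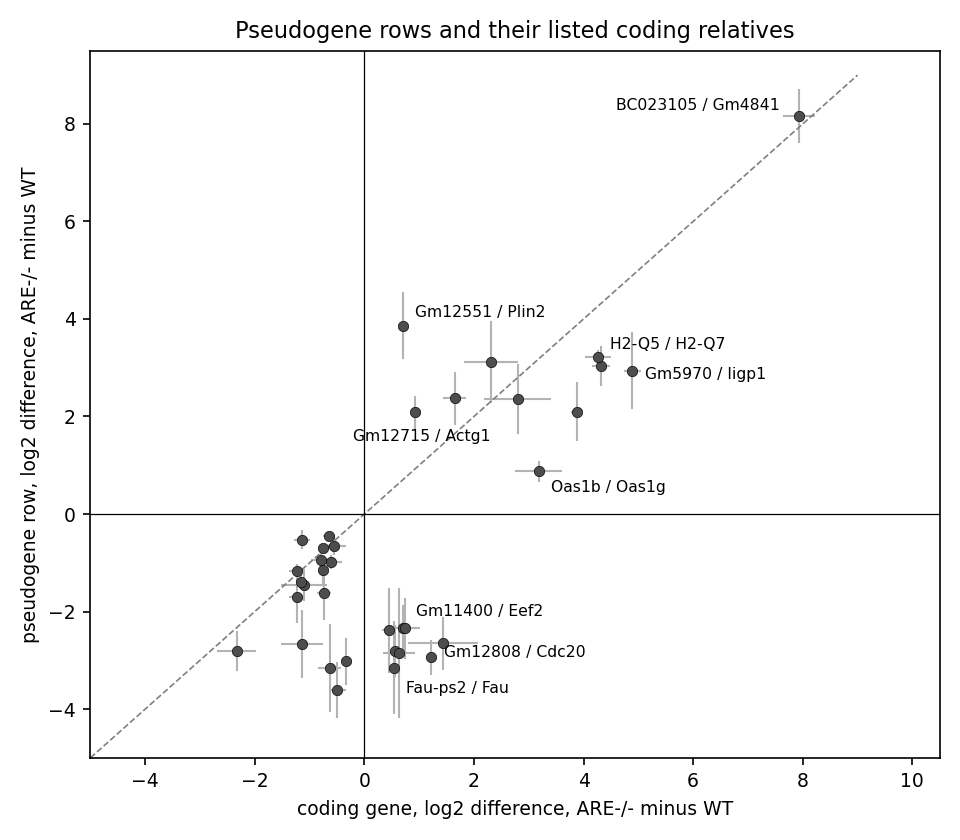
Log2 difference (ARE-/- minus WT) of the pseudogene row against that of its listed coding relative for 36 pairs, with SE bars over 4 hearts per group and the line of equal differences dashed. The 11 pairs with a risen copy lie in the upper right, 17 fell together, and 8 have a fallen copy with a risen coding gene in the lower right.

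Adjusted p (DESeq2) in the authors' deposited table, over the rows called here by name, ran between 1.28e-151 for Gm12250 and 0.0450 for Gm15502, leaving out 3 rows at the threshold. Just inside the threshold of 0.05 were Gm13535, Gm13349 and Gm15460, with adjusted p of 0.0492, 0.0481 and 0.0462 and 0, 1 and 1 reads over the 4 ARE-/- hearts, against 12, 19 and 14 over the 4 WT hearts. Rows just outside were not analysed here.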

How the data were processed

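Paired-end total RNA libraries of 4 ARE-/- and 4 WT hearts were analysed from the authors' deposited gene table, and groups came from the genotype label. Per the submitters' processing notes, the authors used STAR, DESeq2 and build mm10. Tool versions, annotation release, counting tool and strand setting were not given in the sources used here. Whole read counts per gene, deposited without normalization, stand in the table beside FPKM computed by the authors. It also gives the authors' group means of normalised signal, and log2 fold changes and p-values, raw and adjusted, from the authors' DESeq2 fit, per the file headers. Only genes with an adjusted p under 0.05 are listed, so calls are the authors' own, and the number tested was recovered from their adjustment. Size factors were solved from the group means, and library totals from counts, FPKM and gene length, 13416171 to 19432098 reads. Low rows of a few reads carry a large counting error. A second deposited table was not used.

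Longest GENCODE M21 transcripts of 118 rows whose identifiers matched were aligned to coding transcripts with blastn 2.17.0 on the same strand (E value limit 1e-10), best hit by bit score. RefSeq entries on GRCm38.p6 were matched for 103 rows by symbol or synonym and position. Refits used edgeR 4.0.16 with limma 3.58.1 in R 4.3.3 and DESeq2 1.42.0, adjusted as for 19606 genes, and were tested on simulated data. Labels name each heart a separate sample. They name no pairing by replicate number, so the hearts were treated as unpaired. Same-numbered hearts deviated together by correlations of 0.04, 0.01, -0.06 and 0.16, and differently numbered ones by -0.15 to 0.12. Such small values cannot exclude shared handling. The p-values measure the spread between these hearts.

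The members and lists were chosen with earlier results of these data known. Rows were named by rule if their name shows a listed parent or family, if they were among the 8 largest rises or falls with a mean of at least 20 and no overlap, if they were among the 5 most abundant, or if their type has at most 3 rows, 24 of which are described; 1 further row that the rule named is not reported here. The other rows and the groupings by relative or position were chosen after their values were seen. Python 3.11.15 with numpy 2.4.6, pandas 2.3.3 and scipy 1.17.1 was used for the rest. The alternatives tried are given in the closing section.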

Additional observations from a re-analysis of the deposited data

Results flagged for a closer look

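Of 48 groups of 4 libraries, from 24 named rows, 6 had a library far from the other 3 by Dixon's gap against the range, which chance gives in about 1 in 20 groups. ARE-/- replicate 1 was such a library in 4 rows. It had 78.5 normalised counts of BC064078, 92.4 of Gm15931, 40.9 of Gm16340 and 111 of Tmem181b-ps. The other ARE-/- libraries held 20.1 to 21.6, 48.1 to 49.2, 11.2 to 15.8 and 25.7 to 36.9. The first pair are risen rows and the other two are fallen rows, in which this library lay nearest to WT. ARE-/- replicate 3 had 1845 normalised counts of RP23-8J15.1, against 1431 to 1475 in the other ARE-/- libraries. WT replicate 2 had 3919 of RP23-8J15.4, against 3512 to 3540 in the other WT libraries.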

How the results depend on the processing

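The direction of every pseudogene row that any refit called was that of the authors' table. The 28 risen and 96 fallen rows became 27 and 88 in an edgeR refit, 28 and 96 with DESeq2, 24 and 93 with TMM scaling, and 28 and 57 with library totals. TMM and library totals moved the median difference of all listed genes by -0.13 and 0.20. A threshold of 0.01 on the authors' adjusted p left 23 and 36, a minimum mean of 10 left 23 and 34, and a minimum mean of 50 left 8 and 17, which follows from the low counts of the fallen rows. Leaving out 1 library gave 18 to 24 risen and 41 to 82 fallen rows, and leaving out both libraries that stood apart gave 25 and 93. The labels name no pairing by replicate number, and an edgeR refit with that number as a block left 23 and 60. The difference in the ratio of Fau-ps2 to Fau, -3.69, cannot change when hearts are paired by replicate number. Its sign-flip p of 0.125 is the smallest an exact test of 4 pairs allows. Counting only processed pseudogenes of GENCODE M21, chosen after seeing the data, left 10 and 66. Without rows that GENCODE M21 or RefSeq give as coding there were 22 and 94. The table's own type column names no processed class, so that planned split gave no value.

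Of 36 ratios of copy to coding gene, 5 changed sign with a pseudocount of 5. None of the 36 passed adjustment at either pseudocount. Gm6264 to Sp140 turned from 0.80 to -1.10. Its unadjusted exact permutation p with a pseudocount of 5 was 0.0286, the smallest that 4 against 4 allows. The others that changed sign were BC023105 to Gm4841 (-0.046), Gm10480 to Bnip3l (0.081), Gm12430 to Mfap1b (0.31) and RP23-184B11.2 to Sord (0.019). The last ran between -0.299 without WT replicate 1 and 0.00168 without ARE-/- replicate 4, the only omission of 1 library that turned the sign of any of the 36 ratios. With that pseudocount 19 ratios had an unadjusted exact p under 0.05. None passed adjustment (smallest 0.0541 by the exact permutation test), which the smallest p of 4 against 4 again limits. A pseudocount of 5 moved the difference of Fau-ps2 to -1.34 and that of Olfr1372-ps1 to -1.06. Depth limits the fallen rows most, since 62 of them average under 10 normalised counts.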
